A study of Homo sapiens with 4 samples.

Results

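The BTB zinc finger genes analysed here are the protein-coding genes with a symbol that begins with ZBTB. The rule found 42 such genes among the 28775 genes of the count table, on 15 chromosomes, and 41 of them had enough read pairs to enter the test of 16675 genes. ZBTB32 was the gene left out, with 3 to 5 read pairs per sample. RNA was sequenced from HEK293T, a cell line of human embryonic kidney origin. The wild-type group (WT) held 2 unedited samples, with no guide RNA in their labels. The knockout group (MORC2 KO) held 2 samples, edited with a different guide RNA each, gRNA 1 in replicate 1 and gRNA 2 in replicate 2. The guide sequences that the authors give overlap almost entirely, so both target nearly the same site. MORC2 is an ATPase that binds DNA and acts in gene silencing, and the comparison asks which genes differ in RNA level when it is edited.

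The MORC2 KO samples were bulk pools of cells that had received Cas9 protein and guide RNA, not single clones, so unedited alleles may remain. A lower RNA level per cell and fewer cells with the RNA cannot be told apart in such bulk samples. Poly-A RNA was sequenced, and the libraries held 53970043 to 64312514 counted read pairs. MORC2 itself had 5131 and 4669 read pairs in WT and 3064 and 3637 in MORC2 KO, a level of 61.1% of WT, with a log2 fold change of -0.71 (SE 0.06) and an adjusted p of 1.37e-04 by edgeR's quasi-likelihood F-test. The RNA level does not show how much MORC2 protein remained. The authors measured knockout efficiency by western blot in cells of both guide RNAs. MORC2 shares 23.3% of its exon bases with MORC2-AS1, and reads that overlap both genes were not counted. Of 8 marker genes of HEK293 cells, all 8 were detected, with VIM at 30597 to 36603 and PAX2 at 69 to 106 read pairs. Among markers of other cell types, PTPRC, CD3E and HBB had 0 to 1 read pairs per sample, while ALB, PECAM1 and DES had 2 to 14 and COL1A1 had 194 to 238.

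BTB zinc finger proteins carry an amino-terminal BTB domain, through which they pair with each other and recruit corepressors, and carboxy-terminal C2H2 zinc fingers, which read DNA. They differ in this from the KRAB zinc finger proteins, which silence transposable elements through KAP1. Members of the family are best known as switches of cell fate in blood and brain, as readers of methylated DNA and as partners of MYC and p53 in the control of the cell cycle. ZBTB8OS is named only for its place on the strand opposite to ZBTB8A, and encodes archease, a factor of tRNA ligation, so that it belongs to the symbol group but not to the protein family.

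Promoter sequences were available for 36 of the 42 genes, as windows of 250 bases before and 50 after the start of transcription (RefSeq, GRCh38.p14, the start listed first for each gene). The 150 bases upstream of the start are printed for the 5 genes that came closest to a difference between the genotypes and for ZBTB33, the member with the highest level per length, 5′ to 3′ on the strand of the gene. Capitals mark the motifs CGCG, the core of the methylated site bound by ZBTB33, and TCCTGCNA, its unmethylated site, searched on both strands.
ZBTB20 (chr3:114900626-114900775, minus strand): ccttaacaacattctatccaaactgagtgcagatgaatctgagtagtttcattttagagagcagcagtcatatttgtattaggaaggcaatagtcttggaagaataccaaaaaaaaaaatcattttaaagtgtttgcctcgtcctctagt
ZBTB26 (chr9:122931513-122931662, minus strand): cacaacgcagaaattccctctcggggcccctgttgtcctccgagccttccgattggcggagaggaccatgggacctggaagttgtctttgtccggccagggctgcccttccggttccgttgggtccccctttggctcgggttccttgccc
ZBTB47 (chr3:42653547-42653696, plus strand): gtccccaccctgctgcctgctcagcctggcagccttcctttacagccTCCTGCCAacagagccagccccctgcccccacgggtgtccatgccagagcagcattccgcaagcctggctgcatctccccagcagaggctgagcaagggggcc
ZBTB25 (chr14:64505214-64505363, minus strand): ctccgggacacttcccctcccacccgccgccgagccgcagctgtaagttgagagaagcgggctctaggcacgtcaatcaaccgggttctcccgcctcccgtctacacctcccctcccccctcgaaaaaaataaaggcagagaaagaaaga
ZBTB8B (chr1:32464922-32465071, plus strand): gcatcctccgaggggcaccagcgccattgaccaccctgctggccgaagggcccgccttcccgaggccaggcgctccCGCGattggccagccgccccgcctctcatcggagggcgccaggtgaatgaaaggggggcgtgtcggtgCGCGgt
ZBTB33 (chrX:120250662-120250811, plus strand): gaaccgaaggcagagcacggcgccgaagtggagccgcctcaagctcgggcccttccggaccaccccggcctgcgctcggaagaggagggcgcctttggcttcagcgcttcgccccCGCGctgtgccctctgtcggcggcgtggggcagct

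The printed stretches differ in their base content. That of ZBTB20 is AT-rich, with a GC content of 34.7% and 1 CpG, but 8 starts are listed for this gene and only the first was used. In 20 of the 36 windows, the first 40 transcribed bases were in a GENCODE 29 transcript of the gene. Whether HEK293T cells use these starts was not tested. The stretches of ZBTB8B and ZBTB33 both have a GC content of 72.7% and hold 16 and 18 CpGs, while that of ZBTB47 has 67.3% GC but only 2 CpGs. Over the whole windows, the median ratio of observed to expected CpG was 0.838 for the 36 ZBTB genes and 0.767 for 15463 protein-coding genes. CGCG was in 26 ZBTB windows (72.2%) and in 65.8% of all windows, and TCCTGCNA was in 2 (5.56%, those of ZBTB47 and ZBTB7C) and in 4.32%. The TATA box letters TATAAA, searched on both strands, were in 0 of the 36 windows and in 9.58% of all. A match is a description of the letters and not a sign that a protein binds there.

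Between genes, levels were compared as CPM, the counts scaled to library size, per kilobase of exon. The tested ZBTB genes were expressed at ordinary levels, with a median in WT of 5.56 CPM per kilobase against 6.69 for all tested protein-coding genes. ZBTB33 (Kaiso), which binds methylated CpGs and silences the genes beside them, had the highest level, at 20.8 and 20.5 CPM per kilobase in WT and 21.1 and 21.5 in MORC2 KO. ZBTB8OS followed with 14.9 in both WT samples and 14.01 and 13.18 in MORC2 KO. The next were ZBTB21 (13.1 and 12.7 in WT), ZBTB11 (12.5 and 11.7) and ZBTB2 (12.3 and 11.5), and the order of ZBTB11 and ZBTB2 did not hold beyond their spread, since the values of the WT samples overlapped. At the other end, ZBTB7C, ZBTB16, ZBTB32 and ZBTB20 all lay at or under 0.125 CPM per kilobase in every sample. ZBTB20 was the lowest by this measure in WT, at 0.0304 and 0.0216, because its 69 to 131 read pairs in MORC2 KO and 33 to 52 in WT are spread over 28704 bases of annotated exon.

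**Figure D1:**
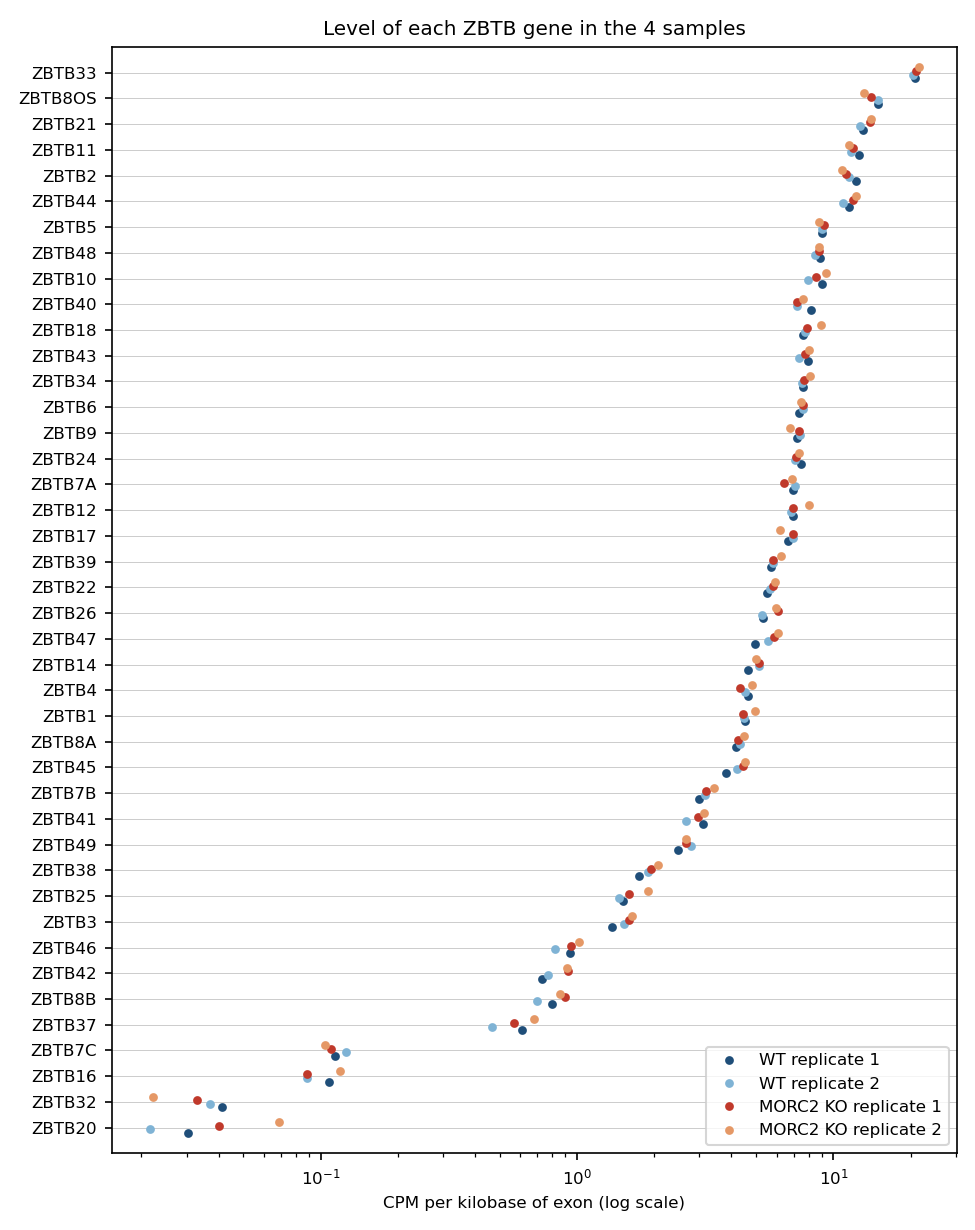
Level of each of the 42 ZBTB genes in the 4 samples, in CPM per kilobase of exon on a log scale, with genes ordered by their WT mean. The 4 points of most genes lie together, from ZBTB33 at about 20.8 down to ZBTB20 at 0.0216 to 0.0691, where the MORC2 KO points stand to the right of the WT points.

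Against WT, no ZBTB gene passed the test in MORC2 KO, in either direction. By edgeR's quasi-likelihood F-test with Benjamini-Hochberg adjustment over all tested genes, 0 of 41 had an adjusted p under 0.05, while 0.618% of the 16675 genes did (0.588% higher and 0.03% lower), so the count for the ZBTB genes lies near the share over all genes. The smallest adjusted p of a ZBTB gene was 0.166. At an unadjusted p under 0.05 by the same edgeR test, 5 ZBTB genes were higher (12.2%, against 8.14% of all genes) and 0 were lower (against 6.17%). DESeq2 also called 0 ZBTB genes, where it called 0.818% of all genes with an adjusted p, and 1 had an unadjusted p under 0.05.

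The estimates of the ZBTB genes were small and lay mostly above 0. Their median log2 fold change was 0.068, beside 0.0054 for all tested genes and -0.0059 for protein-coding genes, and 30 of 41 (73.2%) were positive, beside 51.5% of all tested genes. In 19 of 41 (46.3%) both MORC2 KO samples lay above both WT samples, which held for 24.1% of all genes. In 4 (9.76%) both lay below, which held for 23.4%, and in 18 the genotypes overlapped. With offsets for GC content and gene length, which were among the alternatives tried, the median was 0.019 beside -0.036 for all genes, and 24 of 41 were positive. With scaling by library size alone the median was 0.11 beside 0.045, and 33 were positive.

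The 95% intervals set how large a difference could have been missed. They lay within 0.3 of 0 on the log2 scale for 27 of 41 genes, within 0.5 for 37 and within 1 for 40, ZBTB20 being the exception. The smallest absolute log2 fold change of any gene that was called in the whole table was 0.28. Among the 27 ZBTB genes with at least 1000 read pairs in every sample, the largest absolute log2 fold change was 0.22. Protein-coding genes with symbols that begin with ZNF, many of them of the KRAB family, had a median log2 fold change of 0.11, with 360 of 441 (81.6%) positive and 13 (2.95%) called higher. The difference between the groups of symbols was not tested.

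**Figure D2:**
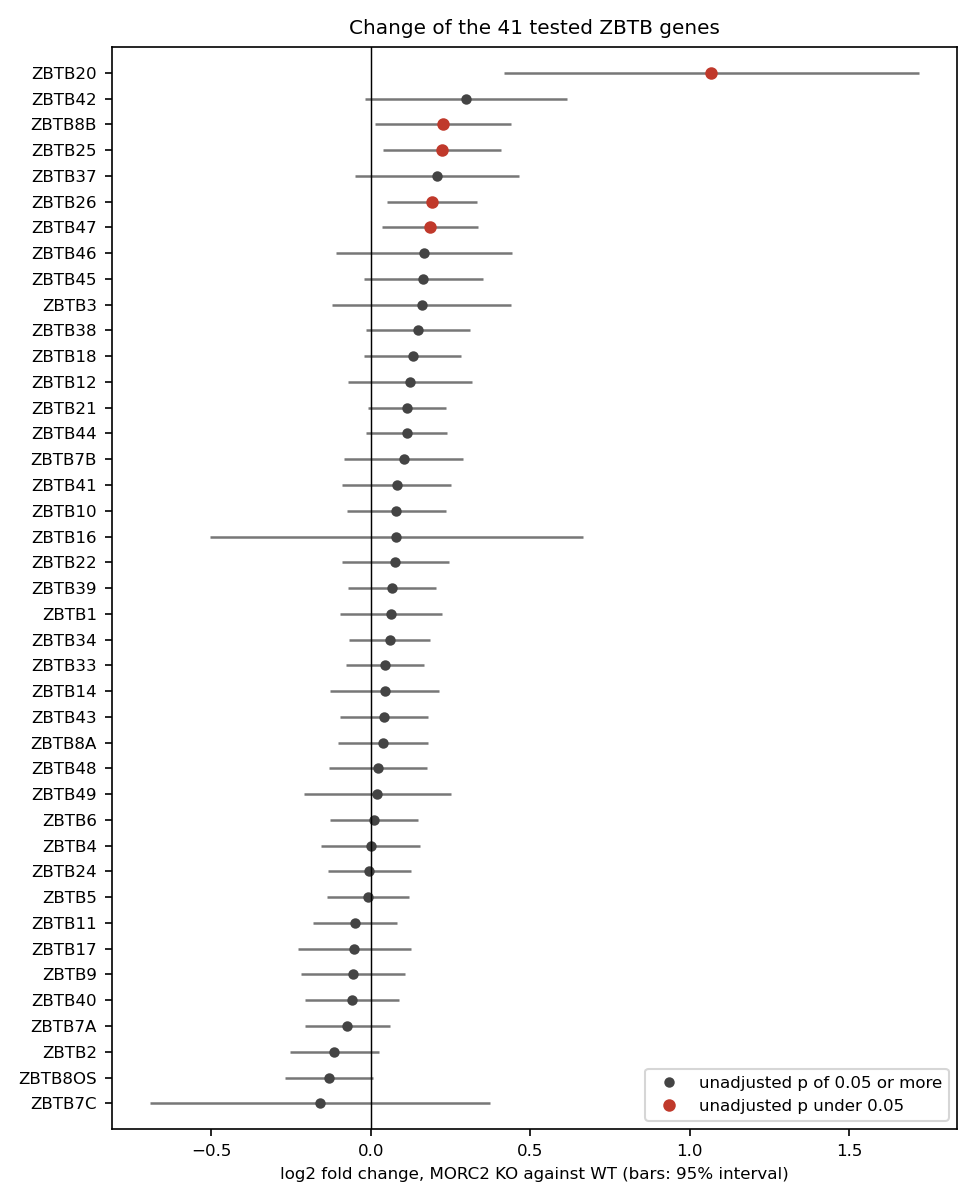
Log2 fold change of MORC2 KO against WT for the 41 tested ZBTB genes, with 95% intervals as bars and genes at an unadjusted p under 0.05 in red. The estimates run from -0.16 for ZBTB7C to 1.07 for ZBTB20, and 5 intervals exclude 0, all on the positive side.

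**Figure D3:**
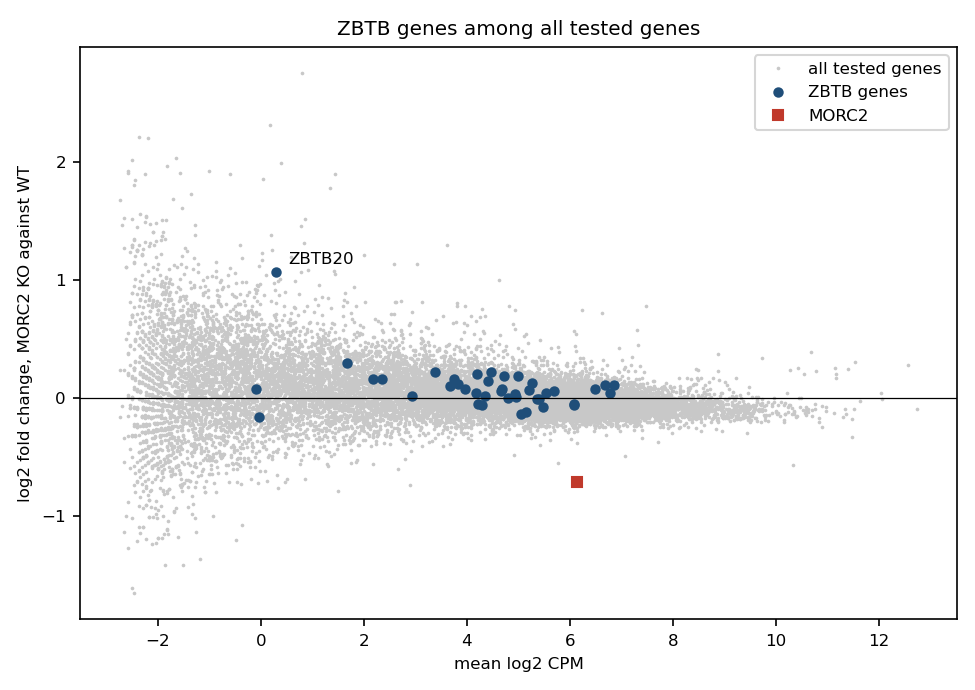
Log2 fold change of MORC2 KO against WT over the mean log2 CPM for the 16675 tested genes (grey), with the 41 ZBTB genes in blue and MORC2 as a red square at -0.71. Most ZBTB genes lie in the dense band around 0, and ZBTB20 stands above it at low abundance.

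ZBTB20 had the largest estimate. It encodes a repressor needed for the development of the hippocampus, which in liver silences alpha-fetoprotein, and lies on chromosome 3 (T2T-CHM13v2.0, 117035293 to 117867765, minus strand). Its counts were 52 and 33 in WT and 69 and 131 in MORC2 KO, or 0.874 and 0.620 CPM against 1.15 and 1.98. Both MORC2 KO samples stood above both WT samples, and replicate 2 stood far above replicate 1. The log2 fold change was 1.07 (SE 0.30, 95% interval 0.42 to 1.72), with an adjusted p of 0.166 by edgeR. Without MORC2 KO replicate 2 it was 0.62, and without replicate 1 it was 1.38. Reads were counted without strand, and ZBTB20 shares 1.04% of its exon bases with ZBTB20-AS1, ZBTB20-AS3 and MIR568. The antisense genes ZBTB20-AS1 and ZBTB20-AS3 had 0 to 1 read pairs in every sample. AFP, the alpha-fetoprotein gene, had 0 read pairs in both WT samples and 1 in each MORC2 KO sample, too few to compare.

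The next 4 genes by p had higher counts than ZBTB20 and smaller differences. ZBTB26 had 24.6 and 24.4 CPM in WT and 28.3 and 27.7 in MORC2 KO, so that the samples of each genotype lay close together and the genotypes did not overlap. Its log2 fold change was 0.19 (SE 0.065), with an adjusted p of 0.241 by edgeR. For ZBTB47 the values were 28.2 and 31.4 CPM in WT and 33.4 and 34.5 in MORC2 KO, with a log2 fold change of 0.19 and an adjusted p of 0.271. In ZBTB25 replicate 2 of MORC2 KO was again the higher, at 25.8 CPM beside 21.8, over 20.7 and 20.1 in WT. The log2 fold change of ZBTB25 was 0.22 and its adjusted p 0.279 by edgeR. ZBTB8B had 10.3 and 8.94 CPM in WT and 11.51 and 10.99 in MORC2 KO, a log2 fold change of 0.23 with an adjusted p of 0.328 by edgeR, and here the WT samples differed from each other by more than the MORC2 KO samples did.

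The remaining genes among the 15 with the smallest p ran from a log2 fold change of -0.13 to 0.30. ZBTB42, which is expressed in skeletal muscle, had 2.74 and 2.89 CPM in WT and 3.48 and 3.45 in MORC2 KO, and its interval reached from -0.02 to 0.62. ZBTB37 had 19.2 and 14.6 CPM in WT and 17.9 and 21.3 in MORC2 KO, so that the genotypes overlapped in spite of a log2 fold change of 0.21. ZBTB21 (0.11) and ZBTB44 (0.11) lay above WT in both MORC2 KO samples. For ZBTB12 (0.12), MORC2 KO replicate 1 was barely above WT, at 13.61 CPM beside 13.6 and 13.36, and replicate 2 was at 15.71. ZBTB8OS went the other way, with 34.5 and 34.4 CPM in WT and 32.4 and 30.5 in MORC2 KO, a log2 fold change of -0.13 and an adjusted p of 0.366 by edgeR.

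The MORC2 KO samples differed from each other in the size of these differences. The median log2 ratio to the WT mean was 0.0265 in replicate 1 and 0.118 in replicate 2, and 28 of 41 genes were higher in replicate 2 than in replicate 1. When replicate 1 was left out, 5 ZBTB genes passed as higher (ZBTB37 at 0.31, ZBTB18 at 0.21, ZBTB25 at 0.33, ZBTB47 at 0.20 and ZBTB20 at 1.38) and ZBTB8OS as lower (-0.19), in a fit that called 20.5% of all genes and in which the lone MORC2 KO sample is assumed to vary like the WT samples. When replicate 2 was left out, 0 ZBTB genes passed, where 1.02% of all genes did. Leaving out WT replicate 1 gave 1 call, ZBTB20, where 0.926% of all genes were called, and leaving out WT replicate 2 gave 0, where 0.595% were. ZBTB20 was also the 1 gene called without a filter on low counts (2.84% of all genes called) and with the replicate number as a block (1.67%), and with crossed replicate numbers, a fit added after seeing the data, 5 ZBTB genes were called higher, where 10.3% of all genes were called.

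**Figure D4:**
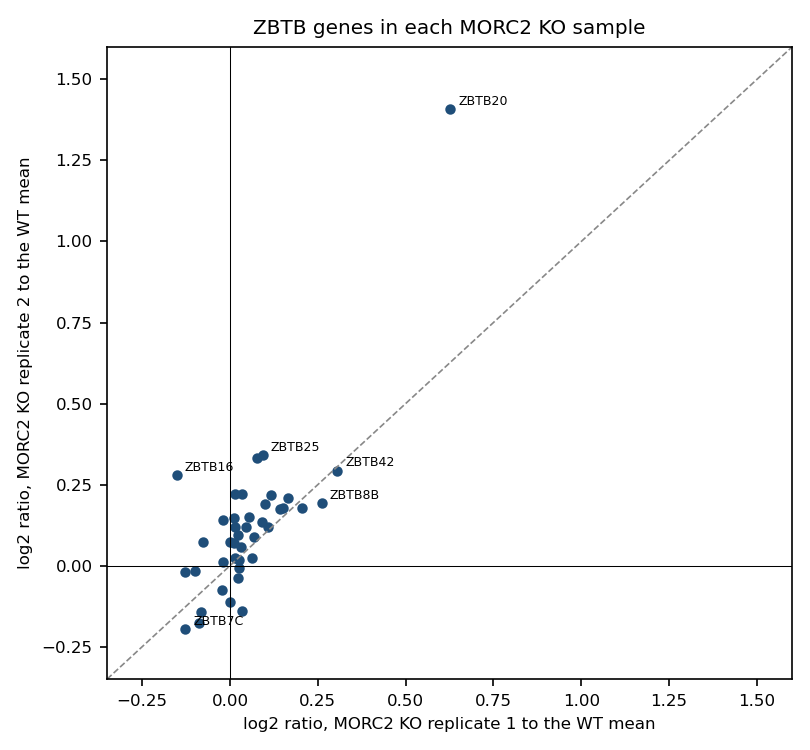
Log2 ratio to the WT mean in MORC2 KO replicate 1 (horizontal) and replicate 2 (vertical) for the 41 tested ZBTB genes, with a dashed line where the samples are equal. In each sample 31 genes lie above 0, 28 genes lie above the dashed line, and ZBTB20 stands apart at 0.63 and 1.41.

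The readers of methylated DNA are ZBTB33, ZBTB4 and ZBTB38, and 0 of 3 passed the test. ZBTB38, the member of this group with the largest estimate, had 19.4 and 21.1 CPM in WT and 21.7 and 23.1 in MORC2 KO, a log2 fold change of 0.15 (95% interval -0.02 to 0.31). ZBTB33 was at 0.04 and ZBTB4 at -0.0004, with 28.2 and 27.5 CPM in WT and 26.4 and 29.3 in MORC2 KO. ZBTB24, whose loss causes ICF syndrome with undermethylated satellite repeats, had 41.9 and 39.9 CPM in WT and 40.3 and 41.2 in MORC2 KO, a log2 fold change of -0.0042 (95% interval -0.14 to 0.13). The other ICF genes lay close to 0 as well, DNMT3B at -0.03, HELLS at 0.05 and CDCA7, which ZBTB24 activates, at 0.09, and 0 of these 4 genes passed.

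Telomere binding is the role of ZBTB48 (TZAP), which limits telomere length, and of ZBTB10, which binds variant telomere repeats. ZBTB48 had 20.7 and 19.8 CPM in WT and 20.6 and 20.5 in MORC2 KO. ZBTB10 had 92.1 and 81.6 CPM in WT and 87.6 and 96.1 in MORC2 KO, and the genotypes overlapped in both genes. Their log2 fold changes were 0.02 and 0.08, and 0 of 2 passed.

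Among the 9 genes with a role in blood and immune lineages, 8 were tested and 0 passed, with ZBTB20 and ZBTB25 of this list described above. ZBTB16 (PLZF), which directs innate-like T cells, was nearly silent, with 57 and 42 read pairs in WT and 47 and 70 in MORC2 KO. ZBTB7B (ThPOK), the switch to CD4 T cells, had 11.9 and 12.5 CPM in WT and 12.7 and 13.6 in MORC2 KO, a log2 fold change of 0.10. ZBTB46, a marker of classical dendritic cells, was at 5.06 and 4.42 CPM in WT and 5.14 and 5.51 in MORC2 KO, a log2 fold change of 0.17 with a wide interval (-0.11 to 0.44). ZBTB1, which is needed for lymphoid development, was at 0.06. ZBTB32, a repressor in lymphocytes, had 5 and 4 read pairs in WT and 4 and 3 in MORC2 KO.

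ZBTB7A (LRF) silences the fetal globin genes and, with ZBTB7B and ZBTB7C, forms the POK group, of which 0 of 3 passed. It had 45.3 and 46.4 CPM in WT and 42.0 and 45.2 in MORC2 KO, a log2 fold change of -0.07. ZBTB7C had 57 and 56 read pairs in WT and 55 and 58 in MORC2 KO. Scaled to library size this gave a log2 fold change of -0.16, with an interval of -0.69 to 0.37. The globin genes HBG1, HBG2 and HBE1 had 0 to 3 read pairs in every sample.

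In the neural and muscle genes ZBTB18, ZBTB20, ZBTB45 and ZBTB42, both MORC2 KO samples lay above both WT samples in 4 of 4 genes, where this held for 24.1% of all tested genes and 46.3% of the ZBTB genes, and 0 of 4 passed the test. The list was chosen with earlier results known. ZBTB18 (RP58), which acts in cortical neurons, had 36.5 and 37.0 CPM in WT and 37.6 and 42.8 in MORC2 KO, a log2 fold change of 0.13. ZBTB45, linked to glial differentiation, had 12.0 and 13.2 CPM in WT and 13.98 and 14.24 in MORC2 KO, a log2 fold change of 0.17 (95% interval -0.02 to 0.35).

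Genes that act on CDKN1A and the cell cycle were ZBTB17 (MIZ1), the partner of MYC in repression, ZBTB2, ZBTB5, ZBTB49, ZBTB7A and ZBTB4. Of these 6, 0 passed and 5 had estimates below 0, where 8082 of the 16675 tested genes did. ZBTB4, at -0.0004, ZBTB5 and ZBTB17 changed sign in some of the alternative fits. ZBTB2, which represses CDKN1A, had 38.0 and 35.7 CPM in WT and 34.8 and 33.4 in MORC2 KO, a log2 fold change of -0.11 with an adjusted p of 0.435 by edgeR. ZBTB17 was at -0.05, ZBTB5 at -0.0087 and ZBTB49 at 0.02, each with overlapping genotypes. CDKN1A and CDKN2B, both repressed by ZBTB17 with MYC, were at 0.09 and 0.09, and neither passed. The 20 ZBTB genes in no role list had a median log2 fold change of 0.073, with 0 called.

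Of the BTB zinc finger genes that carry other symbols, 0 of 8 were called, near the share of 0.618% over all tested genes. Their log2 fold changes ran from -0.07 to 0.32. HIC1, a tumour suppressor, had 2.50 and 2.37 CPM in WT and 2.86 and 3.22 in MORC2 KO, with a log2 fold change of 0.32 and an adjusted p of 0.375 by edgeR. It shares 26.5% of its exon bases with SMG6, where reads were dropped. BCL6, which controls the germinal centre, was at -0.07, BCL6B at -0.01, HIC2 at -0.05, PATZ1 at 0.03, GZF1 at 0.03, MYNN at 0.01 and ZNF131 at 0.05. CCND2, a cyclin gene repressed by BCL6, had 69.4 and 68.7 CPM in WT and 73.2 and 88.9 in MORC2 KO, a log2 fold change of 0.23 with an adjusted p of 0.249 by edgeR. The estimate rested on replicate 2 of MORC2 KO, since it was 0.35 without replicate 1 (adjusted p 1.45e-04 by edgeR) and 0.08 without replicate 2 (adjusted p 0.666). CCND2 also passed without a filter on low counts, with an adjusted p of 0.0197 by edgeR. PRDM1, another target of BCL6, had 3 to 9 read pairs in every sample.

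The corepressors and partners through which these proteins act, among them NCOR1, BCOR, SIN3A, the HDACs and CUL3, numbered 29, and 0 passed in either direction. Their log2 fold changes ran from -0.17 to 0.12, with a median of -0.03. Values this small depend on the scaling. With library size alone, the median of all tested genes was 0.045, beside 0.0054 in the comparison as reported. Of the 29, 22 were negative, where 8082 of the 16675 tested genes and 7308 of the 14135 tested protein-coding genes were. Both MORC2 KO samples lay below both WT samples in 12 (41.4%) and above in 3 (10.3%). Over all tested genes these shares were 23.4% and 24.1%, and over tested protein-coding genes 25.5% and 22.8%. At an unadjusted p under 0.05, 3 of 29 were lower, where 6.17% of all tested genes were, and 0 were higher. The 3 were CHD4 (-0.17), MTA2 (-0.15) and MBD2 (-0.16). Of other genes of the NuRD complex in this list, MTA1 was at 0.10 and GATAD2B at 0.06. Below 0 were RBBP7 at -0.11, HDAC1 at -0.09, MBD3 at -0.05, GATAD2A at -0.05, RBBP4 at -0.03 and HDAC2 at -0.03. CHD4, a chromatin-remodelling ATPase, had 542 and 519 CPM in WT and 466 and 478 in MORC2 KO, with an adjusted p of 0.271 by edgeR. Without MORC2 KO replicate 1, CHD4 (-0.16) and MTA2 (-0.22) passed as lower, with adjusted p of 0.0236 and 0.00493 by edgeR, in the fit that called 20.5% of all genes. MTA2 was at -0.10 without MORC2 KO replicate 2.

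Several members lie side by side. ZBTB6 and ZBTB26 lie 2.3 kb apart on the minus strand of chromosome 9, and their log2 fold changes were 0.01 and 0.19. ZBTB25 and ZBTB1 overlap head to head on chromosome 14 and were at 0.22 and 0.06. On chromosome 1, ZBTB8B and ZBTB8A lie 42.7 kb apart and were at 0.23 and 0.04, with ZBTB8OS 14.9 kb further on at -0.13. ZBTB43 and ZBTB34, 22.4 kb apart on chromosome 9, were at 0.04 and 0.06, and ZBTB22 and ZBTB9, 136.6 kb apart on chromosome 6, were at 0.08 and -0.05. The differences between neighbours were not tested. In all, 7 ZBTB genes share 1.04% to 9.33% of their exon bases with another gene, and these reads were dropped.

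Compared with other genes, the ZBTB genes have few exons, with a median of 5.5 against 10 for tested protein-coding genes, and a long total exon length, with a median of 5551 against 3756 bases. None was a single-exon gene (0 of 42), and 15 had 2 or 3 exons. The median log2 fold change was 0.064 for these 15 and 0.080 for the 26 others that were tested. It was 0.079 in the 16 genes with a GC content over 50% and 0.064 in the 25 others.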

How the data were processed

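Poly-A RNA of HEK293T cells was sequenced in 2 WT and 2 MORC2 KO samples. Alignment by the authors used Subread 2.0.6 and the T2T-CHM13v2.0 genome, and pairs were counted on strict RefSeq genes with featureCounts 2.0.6. The deposited values are raw counts of read pairs per gene. The recorded command counts multi-mapping reads, uses no strand and drops reads that overlap several genes. Symbols came from RefSeq by Entrez identifier (28763 of 28775 matched).

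The ZBTB genes and the lists were chosen with earlier results of these data known. Genes named were MORC2, the 15 ZBTB genes with the smallest p, the 5 with the highest level per length, all members of the role lists, those that failed the filter, the other BTB zinc finger, target and ICF genes, and cofactors at an unadjusted p under 0.05. Other genes and values were named after their values were seen. These were CUL3, NCOR1 and the like, marker genes, neighbouring ZBTB genes, and MTA1, GATAD2B, RBBP4, RBBP7, HDAC1, HDAC2, MBD3 and GATAD2A.

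Counts were fitted in R 4.3.3 with edgeR 4.0.16 (filterByExpr, TMM factors, older quasi-likelihood F-test, genotype alone), with Benjamini-Hochberg adjustment over 16675 genes at 0.05. SE was obtained by dividing the log2 fold change by the root of the F statistic, intervals are at 95%, and CPM is TMM-scaled. The fit was also run on simulated counts. These gave the replicates of both genotypes the same spread, so they cannot show how it handles the real MORC2 KO pair. Totals were 53970043 to 64312514 counts per sample, with a biological coefficient of variation of 5.33%, and the 95% intervals of the ZBTB genes reached 0.1215 to 0.6494 (median 0.1544) to each side on the log2 scale. Both pairs of replicates differed beyond sampling noise (chi-square per degree of freedom of 17.9 for MORC2 KO and 6.94 for WT). Alternatives were DESeq2 1.42.0, the newer edgeR form, other scaling, loess offsets (span 0.3) on abundance or on GC content and length (GENCODE 29, 94.9% of tested genes matched), other filters, adjusted p under 0.1, the replicate number as a block, and leaving out each sample. Promoter windows came from RefSeq (GRCh38.p14), and no coordinates were converted.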

Additional observations from a re-analysis of the deposited data

How the results depend on the processing

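Of 410 ZBTB estimates under alternatives that kept all samples, 388 kept their sign and their side of the threshold, 7 passed it and 15 changed sign, and of 164 with a sample left out these numbers were 138, 7 and 19. The 18 genes that changed sign had absolute log2 fold changes of at most 0.0817 in the comparison as reported. The number of ZBTB genes called higher was 0, apart from a crossed pairing, except for 1 without a filter on low counts (ZBTB20, adjusted p 0.00103 by edgeR), 1 with the replicate number as a block (ZBTB20, adjusted p 0.0169), and 0 to 5 with a sample left out, of which 1 came without WT replicate 1 (ZBTB20) and 5 without MORC2 KO replicate 1. The number called lower was 0 except for 0 to 1 with a sample left out. The labels name nothing but the number that samples with the same replicate number share. The correlation of their deviations from the genotype means was -0.124, which cannot decide whether they also shared a handling step. A crossed pairing in the replicate block, added after seeing the data, called 5 ZBTB genes higher (ZBTB20, ZBTB26, ZBTB47, ZBTB25 and ZBTB37), CCND2 higher, CHD4 and MTA2 lower, and 903 and 809 of all genes higher and lower.

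Over all tested genes, 98 were called higher and 5 lower. These counts became 154 and 62 with GC content and length offsets, 463 and 182 without a filter, and 237 and 42 with the replicate block. Lower calls were 17 by DESeq2, 8 with loess offsets on abundance and 15 at an adjusted p under 0.1. With a sample left out they ran from 88 to 1397 higher and from 9 to 2117 lower, the largest counts coming without MORC2 KO replicate 1. The cause was not tested.

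With GC content and length offsets ZBTB33 was at -0.0082, ZBTB43 at -0.0002, ZBTB8A at -0.0046, ZBTB48 at -0.022, ZBTB49 at -0.0134, ZBTB6 at -0.0526, HELLS at -0.0025, GZF1 at -0.0068, PATZ1 at -0.0073 and MYNN at -0.0395. With loess offsets ZBTB48 was at -0.0078, ZBTB16 at -0.0483, ZBTB49 at -0.0447 and ZBTB24 at 0.0004. With library size alone ZBTB5 was at 0.0305, ZBTB24 at 0.0356, ZBTB4 at 0.04, BCL6B at 0.0293 and DNMT3B at 0.0118. ZBTB4 was at 0.0015 without a filter and at 0.0017 with at least 10 counts in every sample. With a sample left out, the ranges of genes that changed sign were -0.0182 to 0.1273 for ZBTB1, -0.0043 to 0.1704 for ZBTB10, -0.0988 to 0.0006 for ZBTB11, -0.0283 to 0.1166 for ZBTB14, -0.1552 to 0.2596 for ZBTB16, -0.1531 to 0.0361 for ZBTB17, -0.0386 to 0.0304 for ZBTB24, -0.0771 to 0.0588 for ZBTB4, -0.1417 to 0.03 for ZBTB40, -0.0176 to 0.1897 for ZBTB41, -0.0175 to 0.1014 for ZBTB43, -0.0086 to 0.0529 for ZBTB48, -0.0604 to 0.1018 for ZBTB49, -0.0527 to 0.0233 for ZBTB5, -0.0208 to 0.0386 for ZBTB6, -0.1255 to 0.0032 for ZBTB9, -0.0698 to 0.0387 for BCL6B, -0.0081 to 0.1781 for CDKN1A, -0.0226 to 0.1761 for CDKN2B, -0.0191 to 0.1149 for HELLS, -0.1084 to 0.0093 for HIC2 and -0.09 to 0.0982 for MYNN.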
